A study of Mus musculus with 6 samples.

Results

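A set of 10 genes of eicosanoid synthesis and prostaglandin sensing were followed in macrophages grown from the bone marrow of mice that had breathed cigarette smoke or room air. They were chosen by symbol: the phospholipase gene Pla2g4a, the cyclooxygenase genes Ptgs1 and Ptgs2, the prostaglandin E synthase genes Ptges, Ptges2 and Ptges3, the prostaglandin E2 receptor genes Ptger2 and Ptger4, and Alox5 and Alox5ap of the leukotriene branch. All 10 were among the 19386 genes listed in the authors' deposited table and among the 12082 genes that carried an adjusted p-value there. The 6 libraries formed 2 groups of 3. One came from C57BL/6 wild-type mice exposed to cigarette smoke and one from C57BL/6 wild-type mice kept in room air. The descriptions of all 6 samples also carry the tag ctl, as do the headers of both group means. In both groups the marrow had been freed of erythrocytes and grown in medium with L929 supernatant until harvest on day 11. The dose and length of the smoke exposure and the age of the mice are not given in the labels. The labels number 3 exposures in each group without stating that each is a separate animal, so the splicing p-values measure the spread between these samples, and the expression p-values that of the 24 libraries in the authors' fit. No expression value of a single library was used here: expression is the authors' mean of size-factor-normalized counts in each group.

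Eicosanoids are signalling lipids made from arachidonic acid. Cytosolic phospholipase A2 releases the fatty acid from membranes, cyclooxygenases turn it into prostaglandin H2, and terminal synthases turn that into prostaglandin E2, which macrophages sense through receptors that raise cyclic AMP. In the other branch, 5-lipoxygenase and its activating protein start leukotriene synthesis. Cyclooxygenase-1 is made continuously in many cells, whereas cyclooxygenase-2 is induced by inflammatory signals, and its messenger RNA is known to be short-lived.

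The sequences that frame the results are those of the gene that passed the test, Ptgs2, and of its paralogue Ptgs1, which did not. The 250 bases before the annotated start of each gene, from RefSeq on GRCm38.p6, are chr1:150099781-150100030 on the plus strand for Ptgs2 and chr2:36230176-36230425 on the plus strand for Ptgs1. Capitals mark matches to 8 motifs searched on both strands, where N is any base. A C/EBP match is TTNNGNAA, an Sp1 match is GGGCGG, and an NF-kappaB match is GGG followed by any 5 bases and CC. The TATA box was searched as TATAAA, the cyclic AMP response element as TGACGTCA and by its core TGACG, which lies within it, the E-box as CACGTG, and the AP-1 site as TGANTCA.
Ptgs2: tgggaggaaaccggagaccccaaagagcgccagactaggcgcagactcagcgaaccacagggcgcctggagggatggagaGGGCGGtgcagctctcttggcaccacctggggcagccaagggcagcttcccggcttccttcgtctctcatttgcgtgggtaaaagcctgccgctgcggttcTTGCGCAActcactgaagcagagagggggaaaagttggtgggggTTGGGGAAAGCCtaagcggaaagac
Ptgs1: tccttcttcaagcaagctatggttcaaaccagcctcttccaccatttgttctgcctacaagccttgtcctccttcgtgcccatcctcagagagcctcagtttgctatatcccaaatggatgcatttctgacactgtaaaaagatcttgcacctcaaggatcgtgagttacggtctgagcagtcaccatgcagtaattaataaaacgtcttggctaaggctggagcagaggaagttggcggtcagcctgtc

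The Ptgs2 window held a palindromic C/EBP match, TTGCGCAA, that began 69 bases before the start. A further C/EBP match began 25 bases before the start and overlapped an NF-kappaB match at 23 bases, and an Sp1 match lay at 170 bases. The Ptgs1 window held none of the 8 motifs. The motifs in the Ptgs2 window did not set it apart from the genes that did not pass. C/EBP letters also occurred in the windows of Ptger2 and Pla2g4a, with 2 matches each, and of Ptges and Ptges2, with 1 each. NF-kappaB letters occurred 3 times each for Ptger4 and Ptges3, 2 times for Alox5 and 1 time for Ptges. Of 27025 promoter windows of the same length, 36.9% held a C/EBP match, 45.4% an NF-kappaB match and 32.9% an Sp1 match, while 13.0% held the TATA letters, 1.62% the full cyclic AMP element, 17.9% its core, 6.05% the E-box and 6.87% the AP-1 letters. Sequences were found for 9 of the 10 genes, all but Alox5ap. The search covered only the 250 bases before an annotated start, so motifs after that start or further upstream were not counted. A window without a motif thus does not show that the promoter lacks it.

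The 3′ untranslated region (UTR) of Ptgs2 is rich in ATTTA, the core of AU-rich elements, which bind proteins that speed or delay messenger decay. In the longest coding transcript of GENCODE M21 it held 14 copies over 2445 nt, 5.73 per kb, and 6 copies of the longer TATTTAT. Among 10820 tested genes with a 3′ UTR, 2.76% had at least as many ATTTA copies, 4.53% had at least as many per kb, and 0.323% had at least as many TATTTAT copies. The median gene had 2 ATTTA copies, or 1.35 per kb. The densest stretch of 30 bases, chr1:150105794-150105823 on the plus strand of GRCm38, begins at base 12 of the UTR and holds 4 copies, in capitals, of which 3 overlap.
Ptgs2 3′ UTR site: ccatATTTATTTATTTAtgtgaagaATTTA

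The other genes had fewer copies. Ptger2 had 6, Ptger4 had 5, and Ptges2, Ptges3 and Pla2g4a had 4 each. Alox5 and Alox5ap had 2 each, and Ptgs1 and Ptges had none in UTRs of 921 and 3106 nt. Per kb, Pla2g4a was the densest of the 10, with 9.03 in a UTR of 443 nt.

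Among the 10 genes, Ptgs2 rose after smoke and was the only one past the threshold, an adjusted p under 0.05 in the authors' deposited table. Of the 10 genes, 1 was called in either direction, where 7.69% of all genes tested were. That 1 was higher, as were 4.15% of all genes tested, and 0 of the 10 were lower, as were 3.53% of all. Fewer cells with an RNA and less of it per cell cannot be told apart in these bulk libraries. At an unadjusted p under 0.05, 3 of the 10 genes were past the line in the authors' deposited table (Ptgs2, Ptgs1 and Ptger4), as were 22.8% of all genes tested. The median log2 fold change, smoke against air, was 0.33 over the 10 genes and -0.0029 over all genes tested. The estimate was above 0 for 8 of the 10 genes, against 49.7% of all genes tested.

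**Figure D1:**
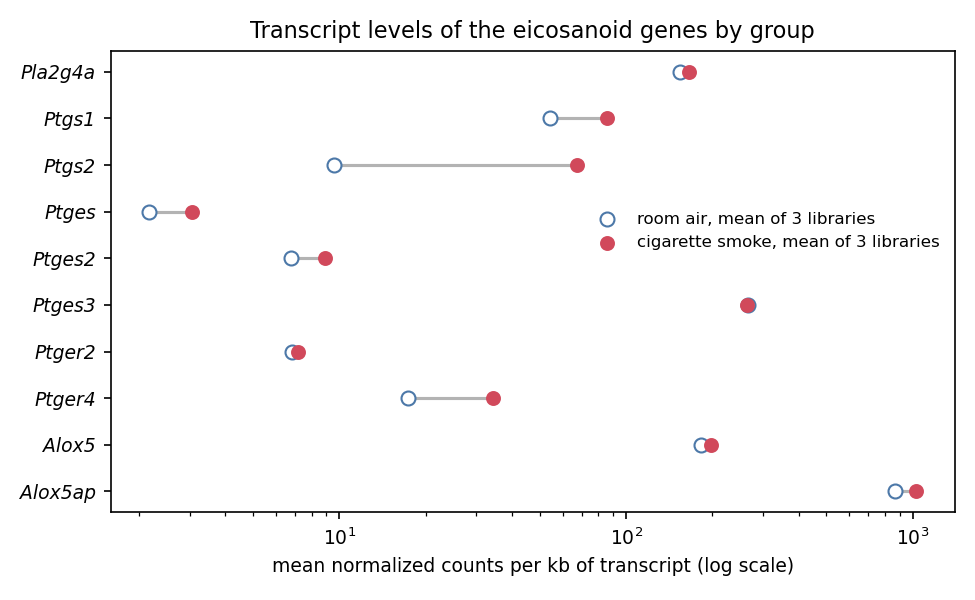
Mean normalized counts per kb of transcript (log scale) of the 10 genes in room air (open circles) and cigarette smoke (filled circles), each the authors' mean of 3 libraries divided by the length of the longest coding transcript. The gap between the groups is widest for Ptgs2, from 9.55 to 67.6, while Alox5ap stands above the other genes in both groups.

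Divided by transcript length, so that genes can be compared, the level in room air was highest for Alox5ap, at 870 normalized counts per kb. Ptges3 followed at 267, Alox5 at 183 and Pla2g4a at 154 normalized counts per kb. Ptgs1 stood at 54.4 and Ptger4 at 17.3. The lowest levels in room air were those of Ptgs2 at 9.55, Ptger2 at 6.82, Ptges2 at 6.76 and Ptges at 2.16 normalized counts per kb. After smoke the order was the same except that Ptgs2, at 67.6, passed Ptger4, at 34.4, and that Ptges2, at 8.92, passed Ptger2, at 7.16 normalized counts per kb. Spreads within the groups were not available for these means, so neighbours in the order were not tested against each other. The order also depends on the length used, that of the longest coding transcript. Which transcripts the cells made was not examined.

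Pla2g4a encodes cytosolic phospholipase A2, which supplies the arachidonic acid (ENSMUSG00000056220.14, chromosome 1, 149829618 to 149961290, minus strand, GRCm38). Its mean in the authors' deposited table was 439 normalized counts with air and 474 with smoke. The log2 fold change there was 0.11 (SE 0.32, adjusted p 0.894) and the 95% Wald interval, computed from the deposited standard error, ran from -0.52 to 0.73. Pla2g4a and Ptgs2 are neighbours that point away from each other, with 138.7 kb between their annotated starts. Of the pair, Ptgs2 passed the threshold and Pla2g4a did not, and the difference between them was not tested.

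Ptgs2, the gene of the inducible cyclooxygenase-2, lies on the plus strand of chromosome 1 from 150100031 to 150108227 (ENSMUSG00000032487.8). Its group means in the authors' deposited table were 42.5 and 301 normalized counts. In room air 22.7% of all tested genes had a lower mean than Ptgs2, and in cigarette smoke 70.6% had. In the authors' deposited table its log2 fold change stood at 2.83 (SE 0.60, adjusted p 0.0005), a 7.11-fold rise with a Wald interval from 3.14-fold to 16.1-fold. By p-value it was the 61st gene of the table, and the 34th among tested genes that were higher. The authors' mean over the 24 libraries of their fit was 9533 normalized counts in the authors' deposited table, far above both group means here. The other 18 libraries are not analysed here, and their spread entered the standard error.

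Ptgs1 encodes cyclooxygenase-1 (ENSMUSG00000047250.13, chromosome 2, 36230426 to 36252272, plus strand). Its means in the authors' deposited table were 156 in room air and 247 normalized counts in cigarette smoke. The log2 fold change there was 0.67 (SE 0.31, adjusted p 0.157), with a Wald interval from 0.075 to 1.27 before adjustment for the number of genes. Per kb of transcript, the level of Ptgs1 was 5.70 times that of Ptgs2 in room air and 1.27 times that of Ptgs2 in cigarette smoke.

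**Figure D2:**
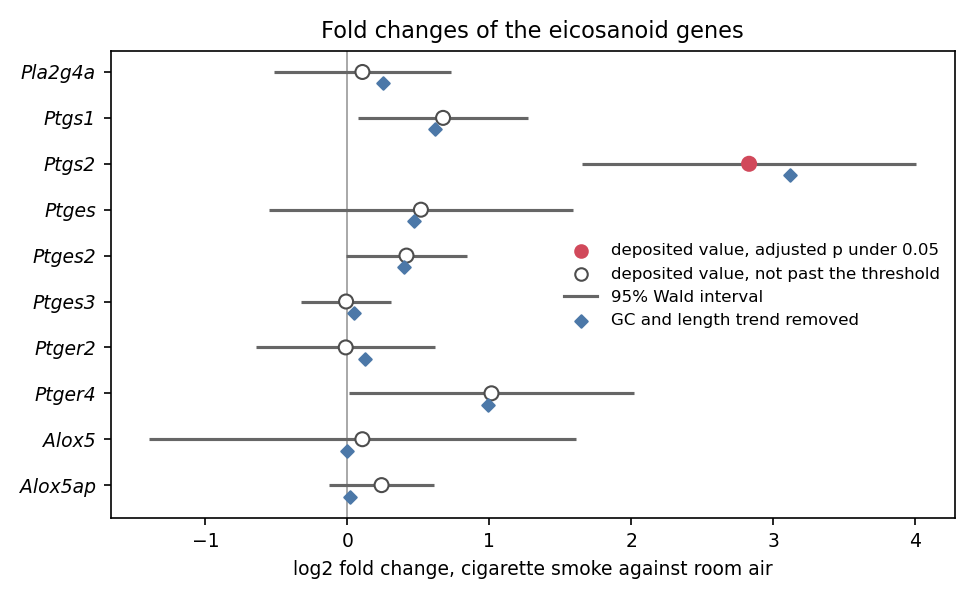
Log2 fold change of each of the 10 genes, cigarette smoke against room air, in the authors' deposited table (circles) with 95% Wald intervals (lines), and after the trend with transcript GC content and length was removed (diamonds). Ptgs2 alone is filled as past an adjusted p of 0.05, at 2.83, and moves to 3.12 without the trend.

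The prostaglandin E synthases differ in partner and setting. Ptges encodes the inducible microsomal enzyme that is known to work beside cyclooxygenase-2 (ENSMUSG00000050737.13, chromosome 2, 30889471 to 30929863, minus strand). It was the least abundant of the 10 genes, with means of 7.89 and 11.1 normalized counts in the authors' deposited table. Its log2 fold change there was 0.52 (SE 0.55, adjusted p 0.630), with a Wald interval from -0.55 to 1.59. Here too the mean over all 24 libraries of the fit was far higher, at 458 normalized counts in the authors' deposited table.

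Ptges2 encodes a further membrane-associated synthase (ENSMUSG00000026820.5, chromosome 2, 32395896 to 32405772, plus strand). Its means in the authors' deposited table were 33.7 in room air and 44.4 normalized counts in cigarette smoke, with a log2 fold change of 0.42 (SE 0.22, adjusted p 0.233). Ptges3 encodes p23, a cochaperone of Hsp90 that also has prostaglandin E synthase activity (ENSMUSG00000071072.12, chromosome 10, 128058954 to 128077272, plus strand). Its means in the authors' deposited table were 534 and 529 normalized counts, with a log2 fold change of -0.0096 (SE 0.16, adjusted p 0.982). The interval for Ptges3, from -0.33 to 0.31, was the narrowest of the 10 and did not reach a 2-fold change in either direction. A named pseudogene of Ptges3 is annotated, and how reads were divided between such copies is not given in the sources used here. Ptges overlaps a processed pseudogene on its own strand, Gm13400, with the same limit.

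Of the 2 receptors that raise cyclic AMP, Ptger4, which encodes EP4 (ENSMUSG00000039942.15, chromosome 15, 5206661 to 5244187, minus strand), had the larger estimate. Its means in the authors' deposited table were 57.4 in room air and 114 normalized counts in cigarette smoke. The log2 fold change there was 1.01 (SE 0.51) and did not pass, with an adjusted p of 0.215 and a Wald interval from 0.0078 to 2.02 before adjustment. Ptger4 overlaps Ttc33 on the opposite strand. The kit was directional, but whether counting used the strand is not given in the sources used here. Ptger2, which encodes EP2 (ENSMUSG00000037759.6, chromosome 14, 44988195 to 45003820, plus strand), had means of 25.1 and 26.4 normalized counts in the authors' deposited table. Its log2 fold change there was -0.012 (SE 0.32, adjusted p 0.989), with a Wald interval from -0.64 to 0.62, and 2 genes on the opposite strand overlap it as well. Per kb, Ptger4 stood at 2.54 times Ptger2 in room air and at 4.80 times Ptger2 in cigarette smoke.

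In the leukotriene branch, Alox5ap encodes the membrane protein that presents arachidonic acid to 5-lipoxygenase (ENSMUSG00000060063.9, chromosome 5, 149264767 to 149288153, plus strand). It had the highest means of the 10 genes, 1089 in room air and 1288 normalized counts after smoke in the authors' deposited table. Its log2 fold change there was 0.24 (SE 0.19, adjusted p 0.483). Alox5 encodes 5-lipoxygenase itself (ENSMUSG00000025701.12, chromosome 6, 116410077 to 116461178, minus strand). Its means in the authors' deposited table were 516 and 556 normalized counts, with a log2 fold change of 0.11 (adjusted p 0.961). Its standard error of 0.77 was the largest of the 10, and its Wald interval ran from 0.379-fold to 3.05-fold. A 2-fold change of Alox5 in either direction was therefore not excluded by its own interval.

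Because a fold change can follow the GC content and length of a transcript, a trend in both was fitted over all genes, after which 153 were called in place of 929. For Ptgs2, with a transcript of 4453 nt, the trend lay at -0.29, below 0, while the gene itself was higher after smoke. With the trend removed its log2 fold change was 3.12 and its adjusted p 0.000219, where 1.27% of the genes in that fit were called. For Alox5ap, with 52.5% GC and 1251 nt, the trend lay at 0.22, against its estimate of 0.24, and 0.021 remained. For the other 8 genes the trend lay between -0.15 and 0.11.

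Of the rest of the pathway, 43 of 83 listed genes were tested, 2 rose and 1 fell, and 40 did not pass. These counts are near those over all genes tested, of which 4.15% were called higher and 3.53% lower. Their median log2 fold change was 0.083, against -0.0029 over all genes tested. Hpgds, the prostaglandin D synthase of blood cells, fell from a mean of 2260.3 to 1444 (authors' deposited table, normalized counts), with a log2 fold change of -0.65 (SE 0.21, adjusted p 0.0313). Akr1b3, an aldose reductase with prostaglandin F synthase activity, rose from a mean of 631 to 885 (authors' deposited table, normalized counts), with a log2 fold change of 0.49 (SE 0.11, adjusted p 0.00173). Gpx4, the glutathione peroxidase that reduces lipid hydroperoxides, rose from a mean of 616 to 830.2 (authors' deposited table, normalized counts), with a log2 fold change of 0.42 (SE 0.12, adjusted p 0.016). With the GC and length trend removed, none of the 3 passed. The log2 fold change was then -0.46 for Hpgds (adjusted p 0.345), 0.28 for Akr1b3 (adjusted p 0.250) and 0.0058 for Gpx4 (adjusted p 0.996), so that the first 2 kept their direction and Gpx4 was left near 0.

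**Figure D3:**
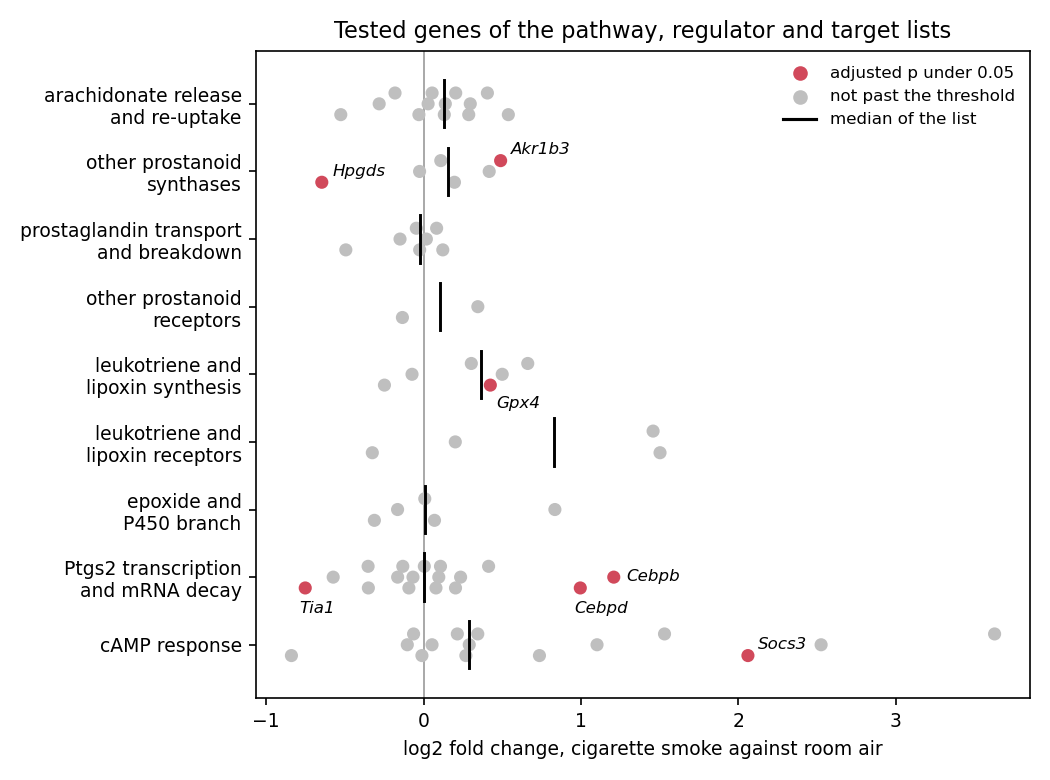
Log2 fold changes in the authors' deposited table, cigarette smoke against room air, of the tested genes in 7 pathway lists, the Ptgs2 regulator list and the cyclic AMP response list, 1 point per gene. Filled coloured points, with names, passed an adjusted p of 0.05, and vertical bars mark each list's median, which lies furthest from 0 for the 4 leukotriene and lipoxin receptor genes, at 0.83.

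In the remaining pathway lists no gene passed. Among 13 tested genes of arachidonate release and re-uptake the highest mean of both groups together was that of Acsl4, an acyl-CoA synthetase that prefers arachidonate, with means of 1036 and 852 normalized counts in the authors' deposited table (log2 fold change -0.28, SE 0.19, adjusted p 0.383). After smoke alone, Acsl5 stood above it, at 863 normalized counts in the authors' deposited table. Among 7 genes of prostaglandin transport and breakdown it was Abcc1, a lipid and leukotriene exporter, at 1355 and 1225 in the authors' deposited table (log2 fold change -0.15, SE 0.16, adjusted p 0.625). Other prostanoid receptor genes were sparse: 4 of 8 were listed and 2 tested, of which Pparg, a nuclear receptor for fatty acid derivatives, had means of 155 and 140.3 normalized counts in the authors' deposited table (log2 fold change -0.13, SE 0.20, adjusted p 0.754). After smoke alone the other tested gene, Ptgir, which encodes the prostacyclin receptor, stood above it at 152 normalized counts in the authors' deposited table. Cysltr1, a receptor for cysteinyl leukotrienes, led the 4 tested leukotriene and lipoxin receptor genes with 181 and 142 normalized counts in the authors' deposited table (log2 fold change -0.33, SE 0.22, adjusted p 0.383). The other 3 were scarcer and had estimates above 0, with a list median of 0.83. Means of normalized counts in the authors' deposited table, air before smoke, were 3.47 and 10.6 for Fpr2 (adjusted p 0.232), 6.94 and 18.2 for Cmklr1 (adjusted p 0.278) and 5.80 and 6.59 for Cysltr2 (adjusted p 0.857). Ephx1, an epoxide hydrolase, led the 5 tested genes of the epoxide branch with 875 and 706 normalized counts in the authors' deposited table (log2 fold change -0.31, SE 0.33, adjusted p 0.633).

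All 17 listed regulators of Ptgs2 transcription and messenger decay were tested, of which 2 rose and 1 fell, against 4.15% higher and 3.53% lower over all genes tested. Their median log2 fold change was 0.0048. The 2 that rose encode C/EBP transcription factors. Cebpb rose from a mean of 50.9 to 116 (authors' deposited table, normalized counts), with a log2 fold change of 1.21 (SE 0.34, adjusted p 0.0117). Cebpd rose from a mean of 76.3 to 155 (authors' deposited table, normalized counts), with a log2 fold change of 1.00 (SE 0.27, adjusted p 0.00752). Tia1, which encodes a protein that binds AU-rich elements and holds back translation, fell from a mean of 249 to 144 (authors' deposited table, normalized counts), with a log2 fold change of -0.75 (SE 0.16, adjusted p 0.000508). With the GC and length trend removed, Cebpd passed with an adjusted p of 0.0255. Cebpb and Tia1 did not, with log2 fold changes of 0.68 (adjusted p 0.449) and -0.49 (adjusted p 0.0945) in the same directions. Elavl1, which encodes the AU-rich element binding protein HuR, passed only without the trend, at an adjusted p of 0.017 against 0.198 in the authors' deposited table.

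Among genes that respond to cyclic AMP below EP2 and EP4, 15 of 16 were tested and 1 rose, against 4.15% of all genes tested, with a list median of 0.29. This was Socs3, a feedback inhibitor of cytokine signalling, which rose from a mean of 16.1 to 65.8 (authors' deposited table, normalized counts), with a log2 fold change of 2.06 (SE 0.55, adjusted p 0.00734). With the GC and length trend removed its log2 fold change was 1.81 and its adjusted p 0.0622. The other 14 did not pass. The list holds genes that cyclic AMP is known to raise, such as Crem, beside genes that it is known to lower, such as Tnf, so its median and counts are no measure of a cyclic AMP response.

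Splicing was measured by JuncBASE, which gives the percent inclusion of alternative events in each library. Of 10376 events, 2 lay in these genes on their strand, both in Alox5, and the other 9 genes had none. The rMATS table of 3887 retained introns held 0 in the 10 genes. The Alox5 events concern retention of intron 10 and joint inclusion of exons 8 and 9, numbered in a GENCODE transcript of 14 exons. The sequences are shown because they carry both events. They are chr6:116413564-116413737 for the intron, chr6:116415374-116415577 for exon 8 and chr6:116414523-116414609 for exon 9, on the minus strand of GRCm38, with the dinucleotides at the intron's ends in capitals.
Alox5 exon 8: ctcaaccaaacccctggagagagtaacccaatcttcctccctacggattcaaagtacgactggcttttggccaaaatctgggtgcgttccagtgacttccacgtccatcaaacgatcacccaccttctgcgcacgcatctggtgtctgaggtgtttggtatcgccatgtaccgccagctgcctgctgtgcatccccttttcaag
Alox5 exon 9: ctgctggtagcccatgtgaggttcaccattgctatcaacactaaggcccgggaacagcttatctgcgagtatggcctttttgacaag
Alox5 intron 10: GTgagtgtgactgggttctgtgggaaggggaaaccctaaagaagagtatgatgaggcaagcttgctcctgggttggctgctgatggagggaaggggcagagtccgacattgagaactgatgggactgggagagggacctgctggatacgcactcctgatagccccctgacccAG

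Both exons are wholly coding. Together they span 291 nt, a multiple of 3 that equals 97 codons, so skipping both would keep the reading frame. The junction that skips them, from 116413917 to 116420240, is not among the annotated introns of GENCODE M21 or the introns of the 7 Alox5 models in the authors' merged annotation. The intron of 174 nt is annotated, and a GENCODE transcript, Alox5-204, retains it.

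Alox5 intron 10 was retained at 3.23%, 9.38% and 4% in the room air libraries 1 to 3, and at 0% in each of the 3 smoke libraries. The groups did not overlap, and room air replicate 2 stood above the other libraries. The means were 5.54% ± 3.35 (SD, n = 3) in room air and 0% in cigarette smoke. By an exact permutation test, two-sided, p was 0.1, which is the lower limit for 3 against 3. In limma, fitted over all 10376 events on log2 odds of inclusion, the difference was -2.67 (SE 0.53) with an unadjusted p of 0.00181 and an adjusted p of 0.177. With every smoke library at 0%, this size depends on the pseudocount, 1 percentage point here, and with 5 points it was -1.11. Lower retention after smoke was common: every smoke library was under every room air library in 38.7% of 1992 retained introns with a value in every library, and the median difference was -3.84 percentage points, against -5.54 for Alox5, while 0.251% of those introns had all smoke libraries above. The difference was more negative than that of Alox5 in 29.3% of those introns.

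**Figure D4:**
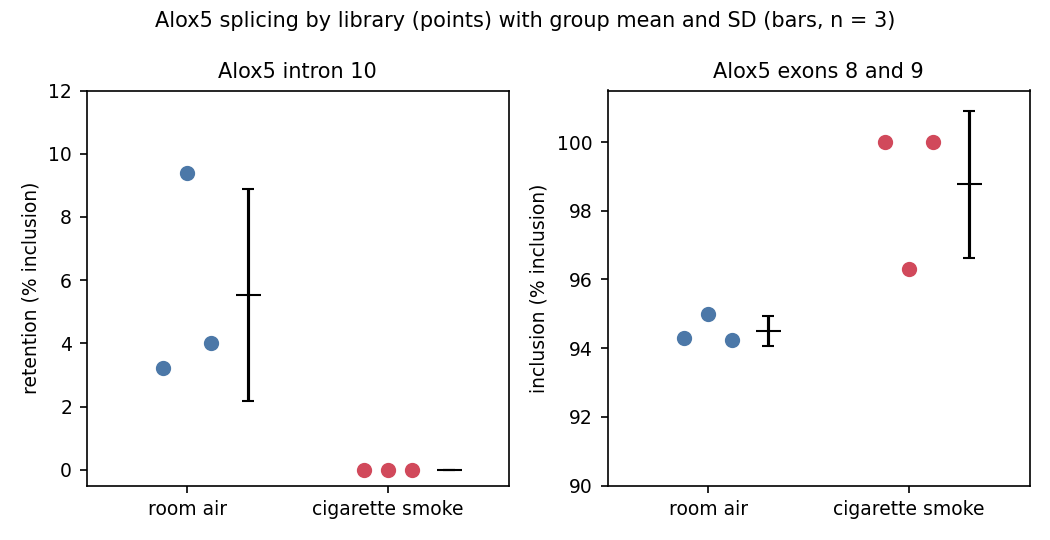
Percent inclusion in each library (points) with the group mean and SD (bars, n = 3), for retention of Alox5 intron 10 (left) and joint inclusion of Alox5 exons 8 and 9 (right, axis from 90%). All 3 smoke libraries are at 0% retention, and the smoke libraries lie at 96.3% to 100% exon inclusion, above 95% in every case.

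Alox5 exons 8 and 9 were included at 94.29%, 95% and 94.23% in the room air libraries 1 to 3, and at 100%, 96.3% and 100% in the smoke libraries 1 to 3. The groups did not overlap. The means were 94.5% ± 0.428 (SD, n = 3) and 98.8% ± 2.14 (SD, n = 3), and the exact two-sided permutation p was again 0.1. In limma the difference on log2 odds was 2.02 (SE 0.73) with an unadjusted p of 0.029 and an adjusted p of 0.397. With a pseudocount of 5 percentage points in place of 1 the difference was 0.86. Among 49 coordinated cassettes with a value in every library, 6.12% had all smoke libraries above all room air libraries, 3 events with this one included, and 2.04% had all of them below. In the authors' deposited table the corrected p-values were 1 for the intron and 0.778 for the exon pair.

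Neither event passed an adjusted p of 0.05 in limma, and 0% of the 10376 events did, although 1125 had an unadjusted p under 0.05. The authors' deposited table likewise had 0 events with a corrected p under 0.05, and 431 with an unadjusted p under 0.05. The read depth behind each level is unknown, so a level of 0% or 100% may rest on few reads. Cigarette smoke replicate 1 had no value for 4169 events, against 1 to 398 in the other 5 libraries. Without cigarette smoke replicate 3 the intron passed with an adjusted p of 0.0406, and 718 of 5982 events passed with it.

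The cell type given by the labels was checked on marker lists. All 10 macrophage markers were listed and tested, and their means in the authors' deposited table summed to 57075.5 normalized counts with air and 57960 with smoke, and none passed. Lyz2 and Csf1r carry much of these sums, and single markers differed in direction. Mrc1, the mannose receptor, had means of 3601 and 2196 (log2 fold change -0.71, adjusted p 0.0836), while the estimates of Fcgr1 and Msr1 were 0.51 and 0.54 in the authors' deposited table. Markers of neutrophils and their precursors summed to 0.322 and 0.508 (4 of 10 listed, means from 0 to 0.313), and those of dendritic cells to 1.66 and 1.02 (4 of 6 listed) in the authors' deposited table. B cell markers summed to 6.31 and 4.14 (3 of 5 listed), and platelet and megakaryocyte markers to 21.6 and 14.7 (5 of 7 listed), most of it Treml1, in the authors' deposited table. Mast cell and basophil markers summed to 54.8 and 48.2 (2 of 9 listed), nearly all of it Kit, in the authors' deposited table. Stromal markers, whose cells can also make prostaglandin E2, had summed means of 52.6 with air and 11.0 with smoke (authors' deposited table, 8 of 8 listed, 6 tested, none past the threshold). The stromal sum was thus lower in the group in which Ptgs2 was higher, and its part in the results was not tested.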

How the data were processed

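Total RNA of 6 macrophage cultures was sequenced with a directional kit on an Illumina instrument, per the labels' protocols. The submitters' processing notes name STAR, DESeq2, SAMtools 1.9, bedtools 2.27.1 and mm10. The counting program and the filters are not given in the sources used here. The gene table deposited by the authors holds a signal per group, the mean of counts divided by size factors, from a fit to 24 libraries per the file headers. The log2 fold changes and standard errors, the Wald score and the p-values are also the authors'. JuncBASE percent inclusion per library, with the authors' difference of medians, was deposited as well, as was an rMATS table of retained introns. Its 6 per-library columns were not used.

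The members and gene lists were chosen with earlier results of these data known. Expression was not tested anew, since the table holds no value per library. Inclusion p was turned into log2((p + 1)/(100 - p + 1)) and tested with limma 3.58.1 in R 4.3.3, for events with at least 2 values a group, with Benjamini-Hochberg adjustment. The GC and length trend was fitted over 12071 genes with splines of 4 degrees of freedom (statsmodels 0.14.6), weighted by the inverse squared standard error, and p-values were recomputed from residuals and deposited standard errors. Both procedures were tested on simulated data. Positions and transcripts are from GENCODE M21 (GRCm38), the longest coding transcript of a gene. Genes of the lists were named if they passed an adjusted p of 0.05, or had the highest mean of both groups together in a list in which none did. Acsl5, Ptgir, Elavl1, Fpr2, Cmklr1, Cysltr2, Nr4a3, Il6 and the macrophage markers given singly fall outside this rule and were chosen after their values were seen.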

Additional observations from a re-analysis of the deposited data

How the results depend on the processing

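Ptgs2 was the only one of the 10 genes called under 6 other settings of the gene table. All 6 start from the same deposited estimates, standard errors and p-values, so they are no independent support for its call. Among the other 9 genes the lowest deposited adjusted p was 0.157, for Ptgs1. Cut-offs of 0.1 and 1.5-fold and centring by 0.0029 therefore left little room for another count. With a minimum mean of 50 over both groups Ptges, Ptges2 and Ptger2 were not tested. Ptgs2 passed that minimum only through its smoke mean, so that this setting is no support for its call. The adjusted p of Ptgs2 ranged from 0.000219 to 0.000801. Its log2 fold change ranged from 2.79, a ratio of group means that carries no test, to 3.12. Removing the GC and length trend turned the sign of 3 estimates near 0, to 0.044 for Ptges3, 0.12 for Ptger2 and -0.0037 for Alox5. The log2 ratio of group means with a pseudocount of 1 turned Ptger2 to 0.068. Centring moved all genes by 0.0029 and turned no sign among the 10. Counts on the other lists were less stable. With the trend removed, the pathway genes gave 0 higher and 0 lower in place of 2 and 1, the Ptgs2 regulators 0 lower in place of 1, and the cyclic AMP genes 0 higher in place of 1, Socs3, whose log2 fold change was 1.81 there against 2.06. At a minimum of 1.5-fold, 0 pathway genes were higher. When genes below a mean of 50 were left out, Socs3 among them, the cyclic AMP genes gave 0 higher. At an adjusted p under 0.1 they gave 3, and the genes so added were scarce. Nr4a3 had deposited means of 0.20 in room air and 2.74 normalized counts in cigarette smoke (adjusted p 0.0642). For Il6 these were 3.39 and 19.9 (adjusted p 0.0825).

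For the JuncBASE events in the 10 genes, leaving out a library gave 0 to 1 called events, against 0 in the other 4 settings tried. The log2 odds difference of the Alox5 intron was -2.67 without cigarette smoke replicate 3 and passed there, as given above. Same-numbered libraries did not deviate together (correlations of 0.018, -0.040 and -0.089 over 5933 events). With the replicate number as a block, 0 events in the 10 genes and 0 of 10005 in all passed, and the adjusted p was 0.598 for the Alox5 intron and 0.605 for the exon pair. The block, and planned fits to counts of single libraries, could not be run for expression, which is given only as group means. Over all genes tested, 153 were called with the trend removed, against 929. Over all events, 718 of 5982 were called without cigarette smoke replicate 3, 23 of 5933 among those with every value and 5 with untransformed percentages, against 0. Read depth is unknown. Levels were also simulated for the 5933 events with every value, fewer than the 10376 fitted above. Of changes of 2 log2 odds 0% were recovered, 63.5% at 4 and 89% at 6, with 0, 9 and 17 false calls. The simulated log2 odds were normal, without a floor or ceiling, with equal spread in both groups, and only a small part of the events was changed. In the data the Alox5 intron was at 0% in every smoke library and lower retention was common. The recovery rates therefore do not carry over to the Alox5 events.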
